A study of Homo sapiens with 3 samples.

Results

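The genes described here encode small heat shock proteins and the co-chaperone BAG3. They comprise 6 symbols (HSPB1, HSPB6, HSPB8, HSPB11, CRYAB and BAG3) of the 26209 listed in the deposited expression tables. All 6 were found by symbol in every library. The set was selected on the measured FPKM of HSPB8, which were higher in both edited clones. The clone and control values of all members are therefore a description, with no test. RNA was measured in 3 libraries of HEK293, a line of adherent cells derived from human embryonic kidney. Both partial KANK1-KO libraries, from clones numbered 114 and 174, came from cells transfected with a plasmid for Cas9 and a KANK1 guide and kept in culture for 3 days afterwards, per the series' design text. The control library came from HEK293 cells labelled with no treatment, and all 3 libraries carry the same DMEM and serum culture conditions. KANK1, which encodes a scaffold linking adhesions and the cell cortex to microtubules, was listed at 3.63 FPKM in clone 114 and 3.43 in clone 174, against 4.49 in the control. Each clone is 1 line with 1 library, and the control is labelled neither as a clone nor as transfected. The edit, transfection with the Cas9 plasmid and growth from a single cell therefore cannot be told apart.

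Small heat shock proteins share an α-crystallin domain, assemble into oligomers and bind unfolding proteins without using ATP. BAG3 binds HSP70 through its BAG domain and binds HSPB8 through IPV motifs. It thereby joins both chaperones to the ubiquitin ligase STUB1 and the autophagy receptor SQSTM1 for disposal of damaged proteins, including the actin crosslinker filamin in muscle. Several of these genes are induced by the heat shock factor HSF1, which binds inverted repeats of the letters GAA. HSPB11 carries the family's name but works in cilia as IFT25, a subunit of the intraflagellar transport complex B.

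The DNA upstream of the members is shown because a shared motif there can be set beside their levels. RefSeq promoter entries on GRCh38.p14 were matched for 5 of the 6 genes, all but CRYAB. The first 250 bases before the start were searched on both strands. The 8-base heat shock motif was searched as GAANNTTC and as TTCNNGAA, each of which reads the same on both strands and can overlap the other. Of 35116 human promoter entries, 5.78% held GAANNTTC, 6.62% held TTCNNGAA and 11.6% held either. Capitals mark these motifs in the sequences below, which run 5′ to 3′ and end 1 base before the start. HSPB8 lies on the plus strand (chr12:119178681-119178930), HSPB1 on the plus strand (chr7:76302423-76302672), HSPB6 on the minus strand (chr19:35757030-35757279) and BAG3 on the plus strand (chr10:119651130-119651379).
HSPB8: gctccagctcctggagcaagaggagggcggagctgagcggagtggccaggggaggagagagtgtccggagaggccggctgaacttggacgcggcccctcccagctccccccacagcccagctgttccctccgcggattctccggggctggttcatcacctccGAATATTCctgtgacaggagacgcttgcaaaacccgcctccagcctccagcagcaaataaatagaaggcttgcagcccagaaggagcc
HSPB1: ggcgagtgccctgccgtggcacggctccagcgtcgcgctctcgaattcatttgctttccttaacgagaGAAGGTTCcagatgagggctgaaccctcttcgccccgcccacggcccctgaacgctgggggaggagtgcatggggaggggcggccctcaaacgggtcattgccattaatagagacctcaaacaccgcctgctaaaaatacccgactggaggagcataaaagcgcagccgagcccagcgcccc
HSPB6: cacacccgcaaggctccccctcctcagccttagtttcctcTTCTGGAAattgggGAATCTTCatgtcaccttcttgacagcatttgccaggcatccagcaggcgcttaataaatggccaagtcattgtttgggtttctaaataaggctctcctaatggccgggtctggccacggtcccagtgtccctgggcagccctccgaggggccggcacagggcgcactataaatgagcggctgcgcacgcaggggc
BAG3: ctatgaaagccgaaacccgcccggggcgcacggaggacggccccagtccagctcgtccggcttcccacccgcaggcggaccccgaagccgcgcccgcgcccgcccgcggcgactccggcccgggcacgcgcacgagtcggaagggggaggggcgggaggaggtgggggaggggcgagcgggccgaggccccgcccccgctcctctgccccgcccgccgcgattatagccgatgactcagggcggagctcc
HSPB8 held GAATATTC with its first base at position -88 from the start, and HSPB1 held GAAGGTTC at -182. HSPB6 held both spellings, TTCTGGAA at -210 and GAATCTTC at -196. No match was found in these windows of BAG3 or of the 2 HSPB11 starts. The AP-1 motif TGANTCA, the CCAAT box and the TATA box TATAAA were searched in the same way. They were present in 6.57%, 32.0% and 10.7% of all entries. BAG3 held the AP-1 motif as TGACTCA at -19. HSPB6 held the CCAAT box as ATTGG at -202 and TATAAA at -29. These other motifs had no further match in these windows. Among 24 genes of a list of HSF1 and heat-inducible chaperones with an entry, 15 held a heat shock motif before at least 1 of their starts, beside 3813 of the 27305 genes with an entry counted the same way. The motif was thus found before HSPB8, HSPB1 and HSPB6. Whether it bears on their levels, which are given next, was not tested.

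HSPB8, the chaperone that partners BAG3, had 9.46 FPKM in clone 114 and 25.7 FPKM in clone 174, against 1.32 FPKM in the control. FPKM are fragments scaled by transcript length and library size, so levels of different genes can be set side by side. Both clones lay above the control, and clone 174 lay above clone 114. The ratio of the deposited values was 7.15 for clone 114 and 19.5 for clone 174. The mean of the clones was 17.6 ± 11.5 FPKM (SD, n = 2), a spread that is mostly the distance between the clones. On the log2(FPKM + 1) scale, which understates changes of low genes, the difference was 2.17 in clone 114 and 3.53 in clone 174. The authors' deposited table, which uses no added constant, listed HSPB8 with a log2 ratio of 2.84 in clone 114 and 4.28 in clone 174. Among genes above 0 in the same library, HSPB8 stood at percentile 57.2 in clone 114 and 80.1 in clone 174, against 28.9 in the control. By the smaller of its 2 differences it ranked 5 among the 12577 genes that averaged 1 FPKM or more over the libraries, called tested genes below. It ranked 6 by the mean of both differences, 10 by that of clone 174 and 23 by that of clone 114. These values are those that chose the gene set.

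The precision behind these levels was estimated from the value that 1 fragment adds to long transcripts. This gave about 16800000 fragments in clone 114 and 17000000 in clone 174, against 16300000 in the control. For the longest coding transcript of HSPB8, of 2152 bases, the levels stood for about 310 fragments in clone 114 and 855 in clone 174, against 42 in the control. The 95% Poisson intervals of the level ran from 8.43 to 10.6 FPKM in clone 114 and from 24.0 to 27.5 FPKM in clone 174, against 0.949 to 1.78 FPKM in the control. They cover counting error only, and would be wider if shorter transcripts were used. Because these values chose the gene set, nothing is read from whether the intervals overlap.

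**Figure D1:**
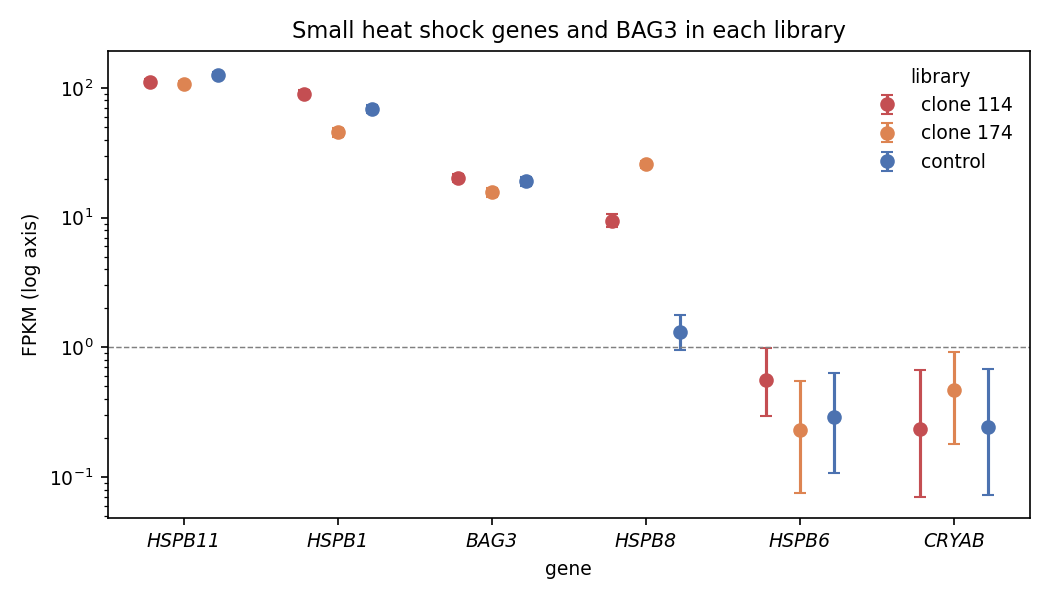
Level of each member in FPKM on a log axis, with 1 point per library (clone 114, clone 174 and control from left to right) and bars for the 95% Poisson interval of the estimated fragments. HSPB8 is at 9.46 and 25.7 FPKM in the clones and at 1.32 in the control, whereas HSPB6 and CRYAB lie below the dashed line at 1 FPKM in every library.

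HSPB1, the abundant and widely expressed HSP27, had 90.0 FPKM in clone 114 and 45.5 FPKM in clone 174, against 69.0 FPKM in the control. The control lay between the clones. The log2 difference from the control was 0.38 in clone 114 and -0.59 in clone 174, and the clones averaged 67.8 ± 31.5 FPKM (SD, n = 2). HSPB1 has pseudogene copies in the genome, and whether reads were divided with them was not tested. The level stood for about 1072 and 549 fragments in clones 114 and 174, against 800 in the control. The intervals, of counting error only, do not overlap. HSPB1 and HSPB8 thus differed in which clone was the higher.

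HSPB6 and CRYAB, which are abundant in striated muscle, were near the limit of this depth. HSPB6 had 0.563 FPKM in clone 114 and 0.232 FPKM in clone 174, against 0.290 FPKM in the control, from about 12, 5 and 6 fragments. CRYAB, the αB-crystallin that also acts in the lens, had 0.236 FPKM in clone 114 and 0.467 FPKM in clone 174, against 0.243 FPKM in the control, from about 4, 7 and 4 fragments. The intervals, of counting error only, overlap between the 3 libraries for both genes. No difference is read from these few fragments, and none was tested. Neither gene reached a mean of 1 FPKM, which left 4 of the 6 members tested. The 14 striated muscle markers were all below 1 FPKM in every library, and summed to 1.28 FPKM in clone 114 and 2.57 in clone 174, against 1.84 in the control. Of them, 6 were at 0 in clone 114 and 4 in clone 174, against 7 in the control.

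HSPB11 was the highest member, at 111 FPKM in clone 114 and 107 FPKM in clone 174, against 126 FPKM in the control. Both clones lay below the control, by 0.18 on the log2 scale in clone 114 and 0.23 in clone 174. Once the summed FPKM of the libraries were made equal, HSPB11 differed from the control by 0.013 in clone 114 and by -0.13 in clone 174, so its direction in clone 114 depends on the scaling. BAG3 had 20.3 FPKM in clone 114 and 15.7 FPKM in clone 174, against 19.0 FPKM in the control. The control again lay between the clones, and their mean was 18.0 ± 3.23 FPKM (SD, n = 2). BAG3 was thus not above the control in both clones, whereas HSPB8, its binding partner, was.

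Of the 4 tested members, 1 (HSPB8) was at least 2-fold higher in both clones, and over all tested genes this share was 0.334%. Here and below, 2-fold means a difference of 1 in log2(FPKM + 1), which is less than the ratio of the FPKM in genes of low level. At least 2-fold lower than the control were 0 of the tested members in either clone, and over all tested genes 1.36% in clone 114 and 1.62% in clone 174. In single clones the shares of tested genes at least 2-fold higher were 1.79% for clone 114 and 1.93% for clone 174. Since this contrast chose the set, nothing is read from the count. HSPB11 was below the control in both clones, as were 31.8% of tested genes, and 26.1% were above it in both. HSPB1 and BAG3 had opposite directions in the clones.

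The make-up of the small heat shock transcripts differed between libraries. HSPB1, HSPB6, HSPB8 and CRYAB, the 4 members with an α-crystallin domain, summed to 100.3 FPKM in clone 114 and 71.9 FPKM in clone 174, against 70.9 FPKM in the control. HSPB8 held 9.43% of this sum in clone 114 and 35.8% in clone 174, against 1.87% in the control. HSPB1 held 89.8% in clone 114 and 63.3% in clone 174, against 97.4% in the control. In clone 174 the higher HSPB8 level and the lower HSPB1 level thus left a sum close to that of the control. The FPKM ratio of HSPB8 to BAG3 was 0.466 in clone 114 and 1.64 in clone 174, against 0.0695 in the control. The order of levels was HSPB11, HSPB1, BAG3, HSPB8, HSPB6 and CRYAB in clone 114 and in the control. In clone 174 HSPB8 stood above BAG3 and CRYAB above HSPB6. Between HSPB6 and CRYAB the intervals overlap in each library, so their order is not resolved.

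**Figure D2:**
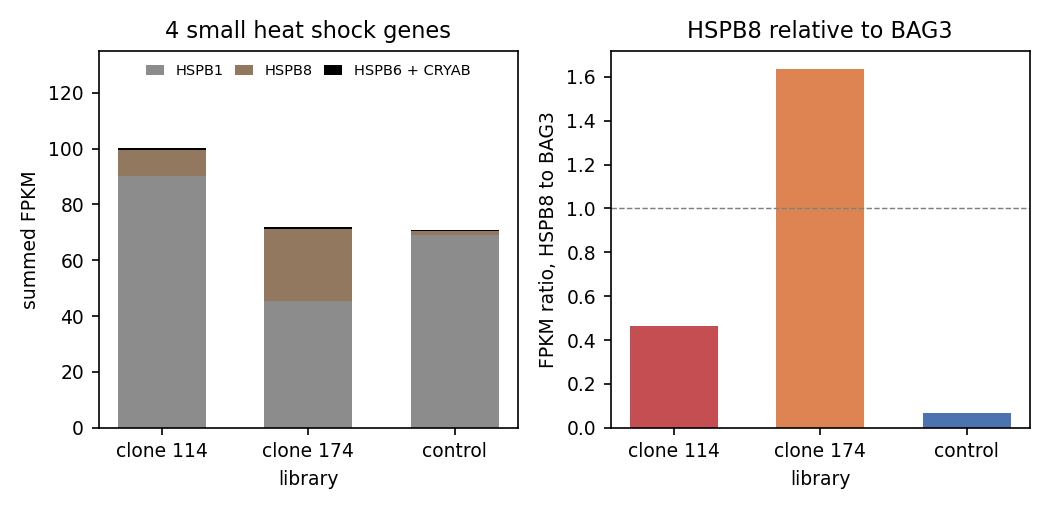
Left, stacked FPKM of HSPB1, HSPB8 and the sum of HSPB6 and CRYAB in clone 114, clone 174 and the control. Right, FPKM ratio of HSPB8 to BAG3 in the same libraries, with 1 library per bar and a dashed line at equal levels, which only clone 174 (1.64) exceeds.

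The clones were also set against each other, a contrast that was not used to choose the set but that has 1 library on each side and therefore no test. HSPB8 was 2.72 times as high in clone 174 as in clone 114 by the ratio of FPKM, and differed by 1.35 in log2(FPKM + 1). Of all tested genes, 2.22% were at least 2-fold higher in clone 174. HSPB1 had 0.506 of the clone 114 FPKM in clone 174, a difference of -0.97 in log2(FPKM + 1), and 3.55% of tested genes were at least 2-fold lower in clone 174. BAG3 differed by -0.35 and HSPB11 by -0.050 on the same scale. HSPB8 and HSPB1 thus stood in opposite order in the 2 clones.

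The remaining small heat shock genes were nearly silent. HSPB2, CRYAA (the lens αA-crystallin) and ODF1 (a sperm tail protein) were listed at 0 in all 3 libraries. HSPB3 was listed at 0 in both clones and at 0.103 FPKM in the control. HSPB7 had 0.0221 FPKM in clone 114 and 0.218 FPKM in clone 174, against 0.0455 FPKM in the control. HSPB9 had 0.277 FPKM in clone 114 and 0.412 FPKM in clone 174, against 0.143 FPKM in the control. None of these 6 genes reached the level tested, so the heat shock genes of this family above 1 FPKM were HSPB1, HSPB8 and, by name, HSPB11.

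The genes around BAG3 were compared across all tested genes with limma, which called 4 genes higher and 6 lower in the clones (0.0795% of tested genes, adjusted p under 0.05). The fit had 1 residual degree of freedom, from the spread between the clones, and 8.80 prior degrees of freedom, from all tested genes. Its p-values thus rest mostly on a spread pooled over genes. The control, with 1 library, adds no spread. Among the 5 other BAG family genes limma called 0, with 0 at an unadjusted p under 0.05, beside 218 of the 12577 tested genes. In both clones 2 (40.0%) were lower and 1 (20.0%) higher, beside 31.8% and 26.1% of all tested genes. BAG2, an inhibitor of STUB1, had 15.6 FPKM in clone 114 and 26.6 FPKM in clone 174, against 19.9 FPKM in the control. BAG5 had 13.6 FPKM in clone 114 and 12.5 FPKM in clone 174, against 16.4 FPKM in the control. BAG1 lay between 9.52 and 9.80 FPKM, BAG4 between 7.27 and 9.16 FPKM and BAG6 between 2.73 and 4.92 FPKM over the libraries. The median log2 change of the family was -0.013, beside -0.020 for all tested genes. With the summed FPKM made equal, these medians were 0.10 for the family and 0.11 for all tested genes, so both medians changed sign.

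BAG3 partners and selective autophagy genes had 26 of 28 members tested, of which limma called 0. An unadjusted p under 0.05 was reached by 1 of them, FLNC, beside 218 of the 12577 tested genes. Of the 26, 12 (46.2%) were higher and 6 (23.1%) lower in both clones, beside 26.1% and 31.8% of all tested genes. The median log2 change of the list was 0.083 against -0.020 for all tested genes. FLNC, the muscle filamin that BAG3 helps to clear, had 16.1 FPKM in clone 114 and 11.1 FPKM in clone 174, against 6.18 FPKM in the control (limma adjusted p = 1.00). FLNA, the widely expressed filamin, had 127 FPKM in clone 114 and 272 FPKM in clone 174, against 297 FPKM in the control (limma adjusted p = 1.00). FLNC was the 1 gene of the list at least 2-fold higher in clone 114, as was 1.79% of tested genes, and FLNA the 1 gene at least 2-fold lower there, as was 1.36% of tested genes. MAP1LC3A, an autophagosome coat protein gene, had 19.2 FPKM in clone 114 and 15.0 FPKM in clone 174, against 10.9 FPKM in the control. STUB1 had 121 FPKM in clone 114 and 93.0 FPKM in clone 174, against 154 FPKM in the control. The autophagy receptor SQSTM1, named here after its values were seen, had 53.7 and 49.2 FPKM in clones 114 and 174, against 65.7 FPKM in the control.

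HSF1 and heat-inducible chaperone genes had 25 of 27 members tested. Of these limma called 0, and 0 had an unadjusted p under 0.05, beside 218 of the 12577 tested genes. Of the 25, 4 were higher and 8 lower in both clones, beside 26.1% and 31.8% of all tested genes. The other 13 had opposite directions. The share lower in both was thus close to that of all tested genes, and the share higher was below it. In clone 114 the median difference of this list was -0.26, beside -0.0058 over all tested genes. In clone 174 it was 0.033, beside -0.047 over all tested genes. Over both clones it was -0.10, beside -0.020 over all tested genes. With the summed FPKM made equal it was 0.030, beside 0.11 over all tested genes, and after quantile normalization 0.026, beside -0.0033 over all tested genes. SERPINH1, a collagen chaperone, had 71.7 FPKM in clone 114 and 82.3 FPKM in clone 174, against 59.9 FPKM in the control. HSPA1B, a stress-inducible HSP70 gene, had 4.66 FPKM in clone 114 and 6.35 FPKM in clone 174, against 4.51 FPKM in the control. HSPA1A had 0.694 FPKM in clone 114 and 2.37 FPKM in clone 174, against 1.07 FPKM in the control. HSPA1A and HSPA1B are near-identical copies, so the division of reads between them is uncertain. AHSA1, an HSP90 activator, had 125 FPKM in clone 114 and 119 FPKM in clone 174, against 154 FPKM in the control. HSPA4, an HSP110-type exchange factor of HSP70, had 88.1 FPKM in clone 114 and 109 FPKM in clone 174, against 123 FPKM in the control. DNAJB1, the HSP40 that HSF1 induces strongly, was named after its values were seen. It had 97.2 FPKM in clone 114 and 69.8 FPKM in clone 174, against 91.4 FPKM in the control. By the difference in log2(FPKM + 1), 0 genes of this list were at least 2-fold higher in either clone, against 1.79% of tested genes in clone 114 and 1.93% in clone 174. HSPA1A in clone 174 differed by 0.70 on that scale, although the ratio of its FPKM was above 2.

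The 16 IFT-B subunit genes that work with HSPB11 in cilia were all tested. Of these limma called 0, and 0 had an unadjusted p under 0.05, beside 218 of the 12577 tested genes. In both clones 5 (31.25%) were higher and 1 (6.25%) was lower, beside 26.1% and 31.8% of all tested genes. The other 10 had opposite directions. The list's median difference was 0.20 in clone 114, beside -0.0058 over all tested genes. In clone 174 the list's median was -0.053, beside -0.047 over all tested genes. IFT81, which with IFT74 binds tubulin, had 17.7 FPKM in clone 114 and 20.2 FPKM in clone 174, against 13.6 FPKM in the control. IFT74 itself had 12.3 FPKM in clone 114 and 10.0 FPKM in clone 174, against 11.6 FPKM in the control. TTC30A and CLUAP1 are further subunits. TTC30A had 5.29 FPKM in clone 114 and 4.85 FPKM in clone 174, against 3.52 FPKM in the control, and CLUAP1 had 6.99 FPKM in clone 114 and 7.60 FPKM in clone 174, against 7.98 FPKM in the control. IFT27, the direct partner of HSPB11, was named after its values were seen. It had 32.1 FPKM in clone 114 and 19.2 FPKM in clone 174, against 22.4 FPKM in the control. HSPB11 was higher per length than each of these subunits in every library.

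**Figure D3:**
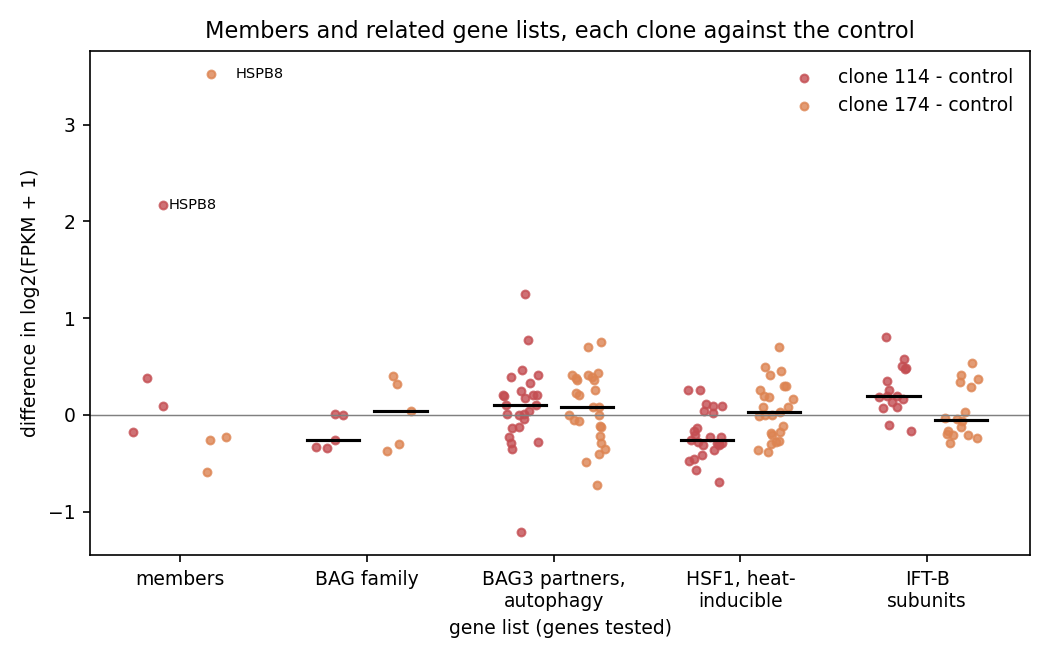
Difference in log2(FPKM + 1) of each tested gene in the members and in 4 related lists, for clone 114 (left column of each list) and clone 174 (right column) against the control, with black lines at the list medians. HSPB8 stands at 2.17 and 3.53, and every other gene shown lies between -1.21 (FLNA) and 1.25 (FLNC), both in clone 114.

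The tested genes whose differences in clone 114 and clone 174 were nearest to those of HSPB8, by Euclidean distance over the 2 values, were CUTA, TP53I3, EPCAM, TCN2 and IAH1. CUTA had 8.35 FPKM in clone 114 and 39.3 FPKM in clone 174, against 1.32 FPKM in the control, at a distance of 0.62 on the log2 scale. CUTA, EPCAM and IAH1 shared with HSPB8 the higher level in clone 174, and TP53I3 and TCN2 were lower in clone 174 than in clone 114. The other 4 lay at distances of 1.28 to 1.61. TP53I3, a p53 target, had 31.1 FPKM in clone 114 and 28.2 FPKM in clone 174, against 5.08 FPKM in the control. EPCAM, an epithelial adhesion molecule, had 23.0 FPKM in clone 114 and 31.2 FPKM in clone 174, against 6.35 FPKM in the control. IAH1 had 33.3 FPKM in clone 114 and 39.5 FPKM in clone 174, against 9.31 FPKM in the control. TCN2, a vitamin B12 carrier gene, had 4.28 FPKM in clone 114 and 3.98 FPKM in clone 174, against 0.294 FPKM in the control. Distances rest on 2 values from 3 libraries and share 1 control.

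Genes next to HSPB8 on chromosome 12 are given as a description of its surroundings. HSPB8 was picked for its higher level in both clones, so nothing is read from its standing above them. Gene order was taken from RefSeq, and 10 tested genes on each side were used. In clone 114 their log2 differences ran from -1.44 to 0.43 around a median of -0.15. In clone 174 they ran from -0.64 to 0.99 around a median of -0.12. Of these 20 neighbours 0 were at least 2-fold higher on this scale in either clone, against 1.79% of all tested genes in clone 114 and 1.93% in clone 174. The highest, HRK, is a gene of low level, at 1.23 FPKM in clone 114 and 2.74 FPKM in clone 174, against 0.891 FPKM in the control. The nearest were SUDS3, with 22.8 FPKM in clone 114 and 22.3 FPKM in clone 174, against 23.4 FPKM in the control, and PRKAB1, with 29.8 and 28.1 FPKM in clones 114 and 174, against 24.7 FPKM in the control. Over the 653 other tested genes of the chromosome, the median difference was 0.031 in clone 114, and 0.21 in clone 174.

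**Figure D4:**
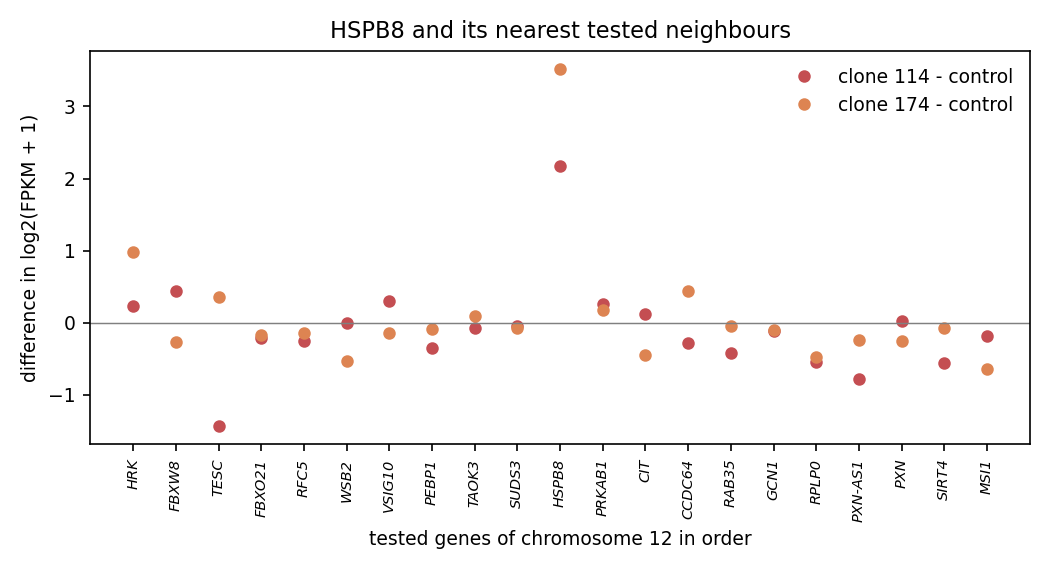
Difference in log2(FPKM + 1) from the control in clone 114 and clone 174 for HSPB8 and the 10 nearest tested genes on each side, in gene order along chromosome 12. HSPB8, which was picked for its higher level in both clones, stands at 2.17 and 3.53. The highest value of the 20 neighbours is 0.99 (HRK in clone 174).

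Beside the other members, HSPB1 had YWHAG on one side, a 14-3-3 gene that is also a BAG3 partner. YWHAG had 97.3 FPKM in clone 114 and 57.6 FPKM in clone 174, against 74.0 FPKM in the control, the same order over the libraries as HSPB1. MDH2 on the other side had 193 FPKM in clone 114 and 130 FPKM in clone 174, against 199 FPKM in the control. C11orf52, next to CRYAB among tested genes, had 1.44 FPKM in clone 114 and 3.16 FPKM in clone 174, against 0.230 FPKM in the control. The read-through transcript HSPB2-C11orf52, which shares exons with it, was listed at 0 in both clones and at 0.158 FPKM in the control, and how fragments were divided between the 2 symbols was not tested. C11orf1 on the other side of CRYAB had 11.5 FPKM in clone 114 and 16.6 FPKM in clone 174, against 8.87 FPKM in the control. The neighbours of HSPB6 (LIN37 and PROSER3), HSPB11 (YIPF1 and LRRC42) and BAG3 (TIAL1 and INPP5F) differed from the control by -0.43 to 0.24 on the log2 scale.

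Of 10 embryonic kidney regulators, 8 reached 1 FPKM in clone 114 and 9 in clone 174, against 8 in the control. PAX8, a defining kidney marker, was at 0 in clone 114 and 0.0684 FPKM in clone 174, against 0.0178 FPKM in the control. LHX1 had 1.62 FPKM in clone 114 and 4.48 FPKM in clone 174, against 1.65 FPKM in the control. By the difference in log2(FPKM + 1), it was the 1 of the 8 tested kidney markers at least 2-fold higher in clone 174. Over all tested genes this share was 1.93%. WT1 had 4.81 FPKM in clone 114 and 4.99 FPKM in clone 174, against 2.60 FPKM in the control. PAX2 had 0.298 FPKM in clone 114 and 1.33 FPKM in clone 174, against 0.368 FPKM in the control. It averaged below 1 FPKM and was not among the tested genes. In clone 174 it differed by 0.77 in log2(FPKM + 1), although the ratio of its FPKM was above 2. The 7 fibroblast markers summed to 3.91 FPKM in clone 114 and 5.93 in clone 174, against 3.53 in the control. Of the 5 blood markers, CD68 alone reached 1 FPKM in each library. The blood list summed to 7.33 FPKM in clone 114 and 8.42 in clone 174, against 6.71 in the control, and 4 of its genes were at 0 in clone 114 and 3 in clone 174, against 3 in the control. The part of these markers or of other cell types in the HSPB8 values was not tested.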

How the data were processed

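Poly(A) RNA of 3 HEK293 libraries was sequenced after TruSeq stranded preparation, per the labels' protocols. The authors deposited FPKM per gene symbol, made with cutadapt 2.10, HISAT2 2.2.1 and Cuffdiff 2.2.1 on hg19, per the submitters' processing notes. Not given in the sources used here: settings, gene annotation and use of strand. The authors also deposited log2 ratios of clone to control, with 9296 rows for each clone. For each clone 9286 of these had a symbol kept here, and all 9286 equalled the ratio of the FPKM within 1e-09. The remaining rows were not compared. Symbols turned into dates (28 in each FPKM file) were left out.

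The 12577 genes that averaged 1 FPKM or more were fitted with limma 3.58.1 (R 4.3.3) after adding 1 FPKM and taking log2 (eBayes with a trend, Benjamini-Hochberg adjustment, threshold 0.05). The fit was checked on simulated data. There, with gene-specific variances, false calls exceeded the nominal rate. Whether the clones were separate cultures is not stated. Depth was estimated from genes with a single GENCODE release 29 transcript no shorter than 1500 bases, with fragments taken to be 200 bases long. Levels near 1 fragment clustered, and 68.5% to 72.0% of low values lay within 0.1 of a whole number. Member fragments used the longest coding transcript, an upper estimate where shorter ones are used.

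Members and lists were chosen with earlier results of these data known. Genes named by rule were the members, other small heat shock and BAG genes, and the 2 highest and 2 lowest of each other list. The rule also named the 5 nearest to HSPB8 in pattern and the tested neighbours. Named outside this rule were KANK1, HSPA1A, SQSTM1, DNAJB1, IFT27, the read-through HSPB2-C11orf52 and the cell type markers given. Promoters and gene order came from RefSeq (GRCh38.p14), with 25051 symbols matched, and coordinates on hg19 were not used here. Alternatives were a pseudocount of 0.1 FPKM, scaling to the same sum, quantile normalization, other filters, no trend and leaving out a clone.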

Additional observations from a re-analysis of the deposited data

How the results depend on the processing

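The HSPB8 log2 change was 2.85 over both clones, and stayed between 2.79 and 3.47 under the other pseudocount, scaling to the same sum and quantile normalization. Leaving out a clone gave 2.17 to 3.53. Scaling to the same sum moved the median change of all tested genes up by 0.13, to 0.11. The changes of HSPB1 (0.043) and BAG3 (0.058) then turned positive, having been -0.11 and -0.085, but stayed below that median. HSPB11 moved to -0.057 with that scaling and -0.039 after quantile normalization, and its difference between clones to -0.14 under both. With a pseudocount of 0.1 FPKM the difference between clones became -0.999 for HSPB6 and 0.75 for CRYAB, whose change became 0.35. These low levels rest on 4 to 12 fragments. The median of BAG3 partners moved to 0.23 with the same sum, 0.13 after quantile normalization and 0.032 with the minimum mean set to 5 FPKM, and was 0.082 to 0.10 with a clone left out. That of the BAG family was -0.26 to 0.037 with a clone left out. The HSF1 list's median turned to 0.030 with the same sum and 0.026 after quantile normalization.

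Genes called higher by limma numbered 9 with the minimum mean set to 5 FPKM, against 0 without a filter. Those called lower were 3 with the same sum, 3 after quantile normalization, and 0 with the lower pseudocount or without a filter. An unadjusted p under 0.05 was reached by 218 of 12577 genes in the main fit. With the lower pseudocount it was reached by 214 of 12577, and without a filter by 486 of 18301. The cause was not tested. With a clone left out, limma has no residual degrees of freedom and gave no counts. No paired analysis was possible because the labels give no number shared between the clones and the control.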
